A study of Mus musculus with 12 samples.

Results

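T and B lymphocytes were followed in the left ventricle through 9 marker genes, Cd3e, Cd3g, Cd4, Cd8a, Lck, Cd79a, Cd79b, Ms4a1 and Ptprc, out of 34844 gene names on the array. A probe was taken as a member when the array's own annotation gave it 1 of these names, which selected 12 of 55681 probes. The hearts came from 12 mice aged 6 months, 4 per group, and each heart was hybridized to its own one-colour Agilent array. All mutants carried floxed alleles of Nkx2-5, a cardiac homeobox transcription factor, together with a tamoxifen-inducible Cre under Cx40, a promoter that is broadly active in embryonic trabecular myocardium. Cre was induced through the mother, by tamoxifen at E10.5 and E11.5 for TrbE10 hearts (Nkx2-5Δtrab in the labels) and at E13.5 and E14.5 for TrbE14 hearts (Nkx2-5Δcomp). Control hearts are labelled as not injected, while the study's methods describe littermates with the same floxed alleles and no Cre. The ventricular wall was taken with the apex and without the septum, and the methods state that pups of tamoxifen-treated mothers were delivered by caesarean section and raised by CD1 foster mothers. The comparison asks whether lymphocyte transcripts accompany the macrophage transcripts that are higher in these mutants.

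Lymphocytes are blood-borne cells of adaptive immunity, and a healthy ventricle holds few of them beside its resident macrophages. T cells recognise antigen through a receptor whose signal is passed on by the CD3 chains, encoded among others by Cd3e and Cd3g. The co-receptors CD4 and CD8 bring the kinase Lck to that complex, CD4 on helper and regulatory cells and CD8 on cytotoxic cells. B cells bind antigen through surface immunoglobulin, and the paired chains encoded by Cd79a and Cd79b carry the signal inward. Ms4a1 encodes CD20, a membrane protein of mature B cells. Ptprc encodes CD45, a tyrosine phosphatase on nearly all nucleated blood cells, macrophages included, so that it marks leukocytes and not lymphocytes as such.

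The probes decide what can be seen of these genes. The last 30 bases of each tested member probe are shown, followed by those of the dark second probes of Cd4 and Cd79a. Capitals mark AATAAA, the usual polyadenylation signal, which lies close to the 3′ end of a messenger RNA. Cd79b, Ptprc and both second probes hold no such letters, and their bases do not tell where in the transcript the signal was read.
Cd3e: taatgcaaaaggcAATAAAgtgtattggct
Cd4: acagaaaAATAAAggctataAATAAAatgc
Lck: tgcctagcacacaccaggagctcAATAAAa
Cd79a: gtgatAATAAAtccttcccaaagcaaaaaa
Cd79b: agaacacactggcttcaagaggagtctagg
Ptprc: gcgagcccagctccaacccagagttcatag
Cd4, second probe: gcagtgtctactgagtgaaggtgataaggt
Cd79a, second probe: gtacttacctccgcgtgcgcaatccagtcc

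In the mm9 build the tested probes are annotated to chr9:44806828-44806887 for Cd3e, chr6:124814711-124814770 for Cd4, chr4:129225614-129225673 for Lck, chr11:106172780-106172839 for Cd79b and chr1:139961083-139961142 for Ptprc, each on the minus strand. Exon and UTR annotation of that build was not used here. The letters AATAAA occur in 4 of the 6 member probes that were tested and in 0 of the 6 others. Over the array they occur in 12.6% of the probes that passed the filter, in 8.03% of those that did not and in 10.1% of all 60-base probes. Their reverse complement TTTATT occurs in 3.74% of all probes and in 1 untested member probe, that of Ms4a1. The Cd79a probe is annotated by the array to chr12:53180558-53180617, whereas RefSeq (GRCm38.p6) places the gene on chromosome 7. It ends in a run of 6 A, and its signal is therefore given as that of a probe named Cd79a. The second Cd79a probe is annotated to chromosome 7 of mm9, where its 60 bases span 258 bases, and it was not well above background in any heart.

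Detection separated the members sharply. A probe was counted as detected in a heart when the scanner's software marked it well above background, and it was tested when this held for at least 3 of 4 hearts of any group. By this rule 6 of the 9 genes were tested. Cd3e, Cd4, Cd79b and Ptprc were detected in all 12 hearts. Lck was detected in 11 hearts, the exception being control replicate 4. Cd79a was detected in 10 hearts, the exceptions being control replicate 4 and TrbE14 replicate 2. Cd3g was detected in 1 heart, control replicate 2, and Cd8a and Ms4a1 in 0 hearts. The number of members detected per heart was 4 to 7 in control, 6 in every TrbE10 heart and 5 or 6 in TrbE14.

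The 3 untested genes mark cytotoxic T cells, mature B cells and the CD3 complex. Cd8a, the cytotoxic co-receptor, was read by a probe printed in 10 spots at chr6:71328911-71328970, and 1 of its 116 measured spots over the 12 arrays was well above background. A second Cd8a probe was dark on every array. Ms4a1, at chr19:11325367-11325426, lay between 2.60 and 2.85 on the log2 scale in control hearts, between 3.34 and 4.38 in TrbE10 hearts and between 2.65 and 4.56 in TrbE14 hearts. All 4 TrbE10 signals of Ms4a1 were above all control signals, and none of them was well above background, so no fold is given. Cd3g, at chr9:44777868-44777927, lay between 2.30 and 4.65 in control hearts, 2.33 and 3.74 in TrbE10 hearts and 2.33 and 3.89 in TrbE14 hearts, with overlap between all groups. Cd3d, its neighbour on chromosome 9 between Cd3g and Cd3e, was well above background in 7 of 12 hearts.

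**Figure D1:**
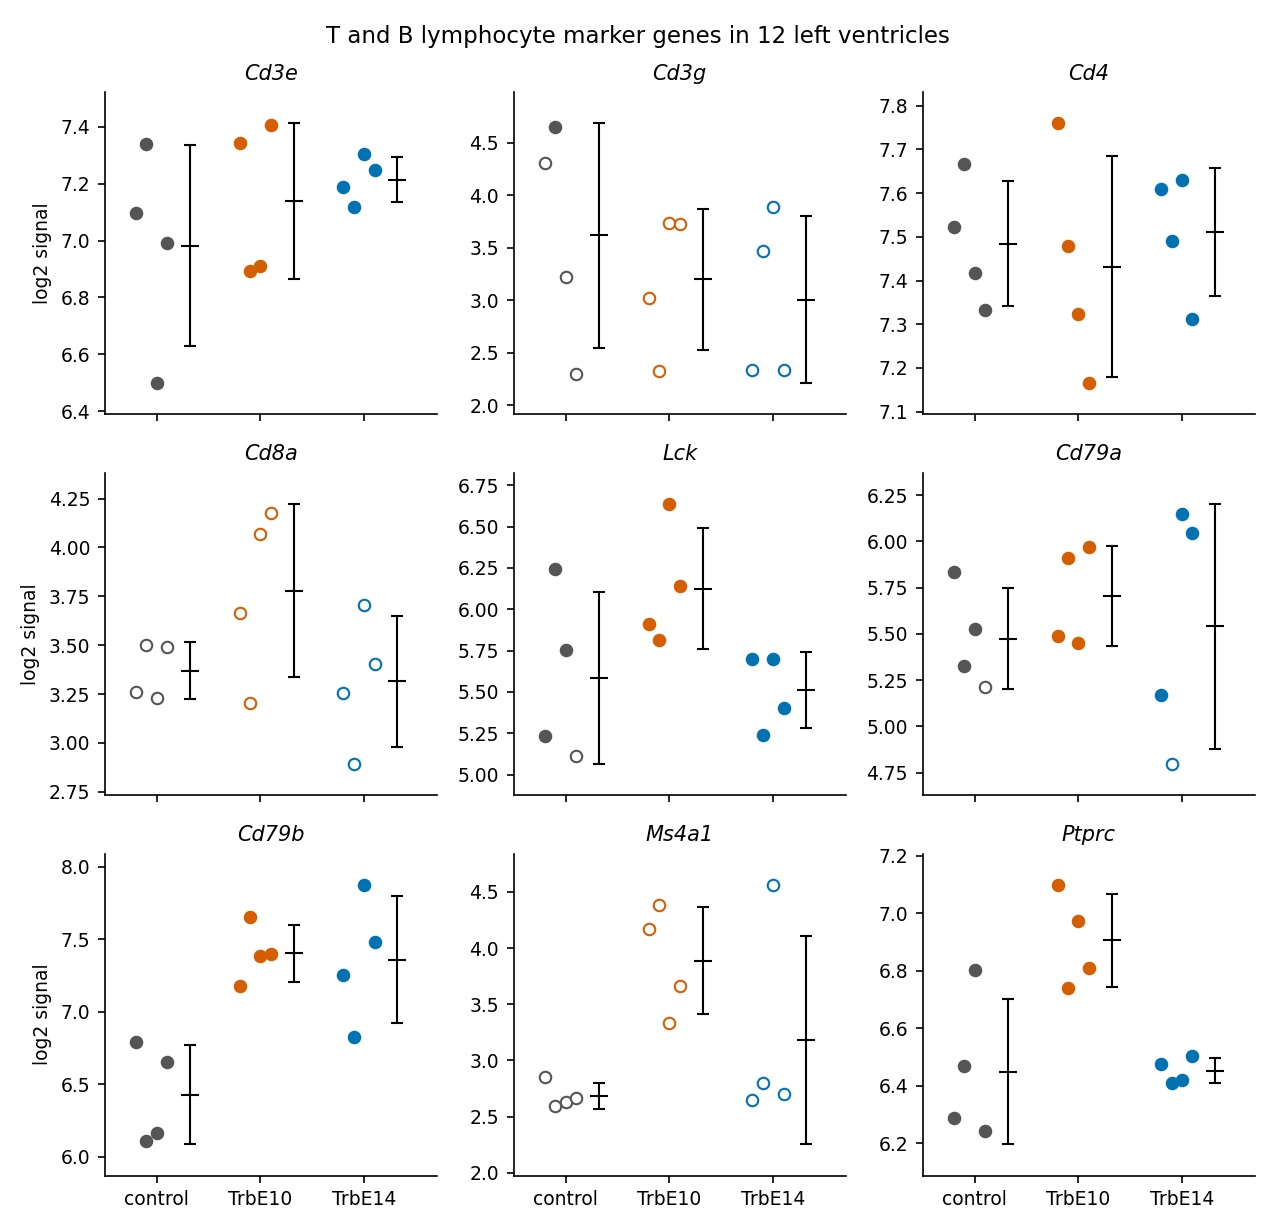
Quantile-normalized log2 signal of each marker gene (y axes, 1 scale per gene) in the 4 hearts of each group (x axes), filled where the probe was well above background and open where it was not, with the mean and SD as a bar to the right of the points. Cd79b is the 1 tested gene whose mutant hearts all lie above its control hearts in both mutants, and Cd3g, Cd8a and Ms4a1 are open in nearly every heart.

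The same RNA gave the following background for all genes. Every sample was bulk tissue, in which fewer cells of a type and less RNA per cell cannot be told apart. Between 22885 and 26145 probes were well above background per heart, and the 75th percentile of the processed signal was 195 to 250 in arbitrary units, with overlapping ranges in the 3 groups. Nkx2-5 was lower in both mutants without overlap, by a log2 difference of -0.66 ± 0.14 (SE, limma, adjusted p = 0.0459) in TrbE10 and of -0.59 ± 0.14 (adjusted p = 0.106) in TrbE14. The 5 cardiomyocyte markers were detected throughout and 0 were called in any comparison. Over all genes 1.93% were called in TrbE10 against control, 0.66% in TrbE14 against control and 0% between the mutants. One slide carried the control and TrbE14 hearts and a second one the TrbE10 hearts, whose group and slide therefore cannot be told apart. Each heart is a separate mouse, and litters are not given. The Y-linked gene Ddx3y was well above background in 1 control, 2 TrbE10 and 3 TrbE14 hearts, and Eif2s3y in 2, 2 and 3. Both sexes were thus present, in unequal numbers between the groups. A fit with the Y-linked signal as a covariate is among the alternatives below.

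Among the 6 tested members the B cell receptor chain Cd79b had the largest difference from control in both mutants. Its log2 signals were 6.79, 6.11, 6.16 and 6.66 in the control hearts. They were 7.18, 7.65, 7.38 and 7.40 in the TrbE10 hearts and 7.25, 6.83, 7.87 and 7.48 in the TrbE14 hearts. The lowest mutant heart, TrbE14 replicate 2, lay just above the highest control heart, and the 2 mutants overlapped each other. The signal was 1.96-fold that of control in TrbE10 hearts, a log2 difference of 0.97 ± 0.22 (SE, limma), with a 95% interval of 0.48 to 1.46 and an adjusted p of 0.0559. In TrbE14 hearts it was 1.90-fold that of control, a log2 difference of 0.93 ± 0.22 with a 95% interval of 0.44 to 1.42 and an adjusted p of 0.106 by limma. Neither passed the threshold of 0.05 over all genes. The exact two-sided permutation p was 0.0286 in each comparison, the smallest that 4 hearts against 4 allow. Within the slide that carried control and TrbE14 the log2 difference was 0.93 ± 0.25 and the adjusted p 0.181 by limma. The TrbE10 difference passed with the normexp background correction (0.59, adjusted p = 0.0392), with the authors' normalized values (0.95, adjusted p = 0.0386) and by SAM (q = 0.0311), and the TrbE14 difference with normexp (0.64, adjusted p = 0.0412), all others keeping it above 0.05 except 2 fits that left out a TrbE14 heart. Cd79b did not differ between the mutants beyond the spread, by 0.043 on the log2 scale with a 95% interval of -0.45 to 0.54.

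The probe named for its partner chain did not show the same separation. The probe named Cd79a gave log2 signals of 5.83, 5.32, 5.53 and 5.21 in control, 5.49, 5.91, 5.45 and 5.97 in TrbE10 and 5.17, 4.80, 6.15 and 6.05 in TrbE14 hearts. The 3 groups overlapped, and TrbE14 spanned the widest range. The log2 difference from control was 0.23 ± 0.29 (limma, adjusted p = 0.737) in TrbE10 and 0.067 ± 0.29 (adjusted p = 0.931) in TrbE14, with 95% intervals of -0.40 to 0.86 and -0.56 to 0.69. The intervals therefore include both no difference and a difference as large as 0.69 on the log2 scale in each mutant. TrbE14 replicates 3 and 4 had the 2 highest signals of their group in Cd79a and in Cd79b.

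Cd3e, the CD3 chain that was detected in every heart, overlapped between all groups. It measured 7.10, 7.34, 6.50 and 6.99 in control hearts, 7.34, 6.89, 6.91 and 7.41 in TrbE10 hearts and 7.19, 7.12, 7.30 and 7.25 in TrbE14 hearts on the log2 scale. The mutant hearts lay inside or just above the control range. The differences from control were 0.16 ± 0.18 (limma, adjusted p = 0.708) in TrbE10 and 0.23 ± 0.18 (adjusted p = 0.567) in TrbE14, with upper 95% limits of 0.54 and 0.62. An increase of Cd3e by the size measured for Cd79b in the same hearts lay outside both intervals.

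Cd4 measured 7.52, 7.67, 7.42 and 7.33 in control, 7.76, 7.48, 7.32 and 7.17 in TrbE10 and 7.61, 7.49, 7.63 and 7.31 in TrbE14 hearts. All groups overlapped, and the spread between hearts was the smallest of the tested lymphocyte genes in control. The log2 difference was -0.053 ± 0.13 (limma, adjusted p = 0.880) in TrbE10 and 0.026 ± 0.13 (adjusted p = 0.941) in TrbE14, with 95% intervals of -0.34 to 0.24 and -0.27 to 0.32. These are the narrowest intervals among the lymphocyte genes. The second Cd4 probe, printed in 10 spots, was well above background in 0 of 115 measured spots. The 2 probes start at positions 3035 and 1242 of the same transcript, and the array annotation gives them the same gene, so the Cd4 signal rests on the 3′ probe alone.

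Lck is the kinase that starts T cell receptor signalling. Its log2 signals were 5.23, 6.24, 5.75 and 5.11 in control, 5.91, 5.82, 6.64 and 6.14 in TrbE10 and 5.70, 5.24, 5.70 and 5.41 in TrbE14 hearts. TrbE10 hearts overlapped control and lay above every TrbE14 heart. The difference from control was 0.54 ± 0.25 (limma, adjusted p = 0.320) in TrbE10, with a 95% interval of -0.018 to 1.10, and -0.074 ± 0.25 (adjusted p = 0.912) in TrbE14. Between the mutants it was 0.61 ± 0.25 higher in TrbE10, with a 95% interval of 0.056 to 1.17, an adjusted p of 0.846 by limma and an exact permutation p of 0.0286.

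The pan-leukocyte gene Ptprc was likewise highest in TrbE10 hearts. It measured 6.29, 6.47, 6.80 and 6.24 in control, 7.10, 6.74, 6.97 and 6.81 in TrbE10 and 6.48, 6.41, 6.42 and 6.50 in TrbE14 hearts. All 4 TrbE10 hearts lay above all TrbE14 hearts, while control replicate 3 reached into the TrbE10 range. The TrbE10 signal was 1.37-fold that of control, a log2 difference of 0.46 ± 0.13 with a 95% interval of 0.18 to 0.73, an adjusted p of 0.0980 by limma and an exact permutation p of 0.0571. Without control replicate 3 the difference was 0.57 and the adjusted p 0.0362 by limma. TrbE14 differed from control by 0.0031 ± 0.13 (limma, adjusted p = 0.993), with a 95% interval of -0.27 to 0.28. Between the mutants TrbE10 was higher by 0.45 ± 0.13, with an adjusted p of 0.551 by limma and an exact permutation p of 0.0286.

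**Figure D2:**
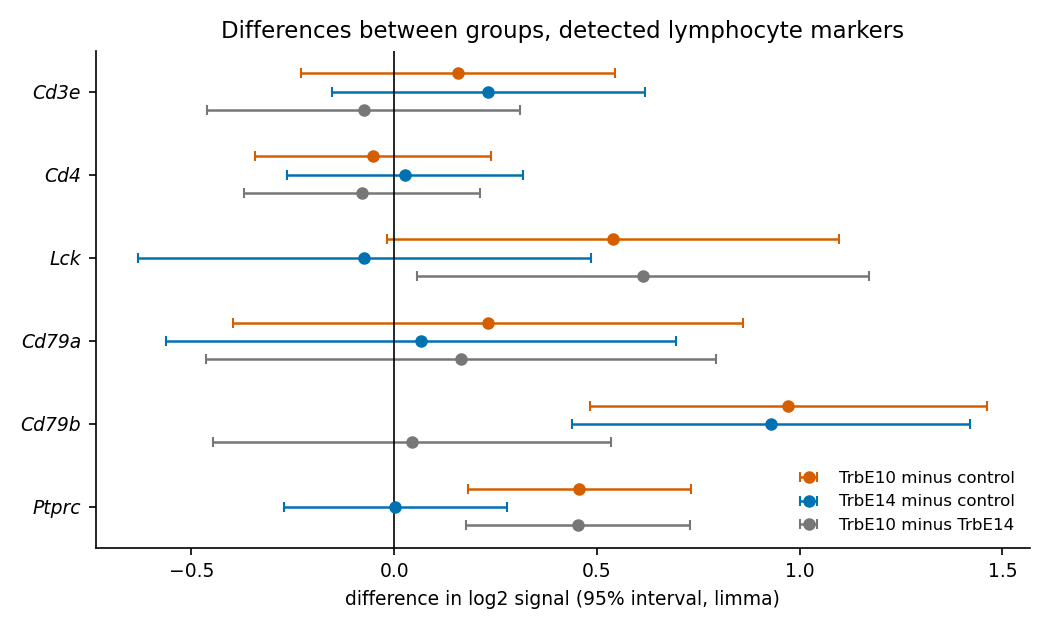
Difference in mean log2 signal between 2 groups (x axis) with its 95% interval from limma for each of the 6 tested genes (y axis), in orange for TrbE10 minus control, blue for TrbE14 minus control and grey for TrbE10 minus TrbE14. The intervals of Cd79b lie above 0 in both mutants, and that of Ptprc lies above 0 in TrbE10 minus control. Those of Ptprc and Lck lie above 0 between the mutants, and those of Cd3e, Cd4 and Cd79a all include 0. The intervals are not adjusted for the number of genes.

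Counted together, 0 of the 6 tested members were called at an adjusted p under 0.05 in any of the 3 comparisons by limma. The background was 1.93% of 18021 genes called in TrbE10 against control and 0.66% in TrbE14 against control. No gene was called between TrbE10 and TrbE14, a background of 0%. At an unadjusted limma p under 0.05, Cd79b and Ptprc counted in TrbE10 against control, Cd79b in TrbE14 against control, and Lck and Ptprc between the mutants, where 3027, 2509 and 1074 of all genes did so. Groups that did not overlap were seen for 1 of 6 members (Cd79b) in TrbE10 against control and for 1 of 6 (Cd79b) in TrbE14 against control, beside 10.6% and 10.1% of all genes in either direction and 4.94% and 4.64% higher, the direction of Cd79b. Between the mutants it was 2 of 6 (Lck and Ptprc, both higher in TrbE10), beside 3.37% in either direction and 1.64% higher. The median log2 difference over the 6 tested members was 0.34 in TrbE10 and 0.047 in TrbE14, beside -0.025 and -0.031 over all genes tested. With counts this small the members as a group are described here and not tested.

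Further T cell genes were detected in part. Of 32 other T cell genes on the array, 15 were tested, beside 18021 of 34844 over all genes. Of the 32, 11 were well above background in 0 hearts, among them Cd8b1, the partner of Cd8a, and Foxp3 of regulatory T cells. Cd28, Prkcq and Gimap3 were well above background in 12 hearts and Zap70 in 11. In TrbE10 against control 0 of the 15 were called, beside 1.93% of all genes. The median log2 difference was 0.16, or 0.11 with Skap1 at its bound. The 3 largest differences were those of Bcl11b, a T lineage transcription factor, at -0.87 (adjusted p = 0.265), Cd6, a surface receptor, at 0.86 (adjusted p = 0.131) and the adaptor Skap1 (adjusted p = 0.276), all by limma. Cd6 was well above background in 2 control, 4 TrbE10 and 0 TrbE14 hearts. Like Skap1, Cd3d and Gata3, it was tested through the TrbE10 hearts alone. For these genes the filter leans towards higher TrbE10 values. Skap1 was well above background in 0 control and 3 TrbE10 hearts, which gives a bound of at least 1.07-fold higher. In TrbE14 against control 1 of the 15 was called lower, beside 0.128% of all genes. The median was -0.32, against -0.031 over all genes. It was -0.14 with Cd2, Cd6 and Cxcr3, which no TrbE14 heart had well above background, at their bounds. Skap1, well above background in no control and no TrbE14 heart, has no bound and kept its measured difference. Also named by the size of their differences were Il2ra, the interleukin-2 receptor alpha chain, at -1.07 (limma, adjusted p = 0.254) and the adhesion molecule Cd2 (adjusted p = 0.279). Il2ra was well above background in 4 control, 2 TrbE10 and 2 TrbE14 hearts. Like Cd7, it was tested through control hearts alone, where the filter leans towards higher control values. Cd2 was well above background in 3 control and 0 TrbE14 hearts, a bound of at least 1.17-fold lower.

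The called gene was Cxcr3, a chemokine receptor of activated T cells and NK cells, and it was lower. Its log2 signals were 4.67, 6.12, 6.25 and 5.56 in control and 5.34, 5.03, 6.29 and 4.93 in TrbE10 hearts, but 2.73, 2.99, 2.51 and 3.39 in TrbE14 hearts. It was well above background in all 4 control, all 4 TrbE10 and 0 TrbE14 hearts. The TrbE14 signal was at least 2.30-fold lower than control, taking the lowest signal well above background on each array as the floor, with an adjusted p of 0.00740 by limma. The authors' normalized values gave a log2 difference of -0.73 with an adjusted p of 0.329 by limma, so that the call was lost, and normexp gave -0.71 with an adjusted p of 0.0358. Both are smaller than the bound, which holds for the quantile-normalized signals used here. TrbE10 differed from control by -0.25 (limma, adjusted p = 0.787). Cxcl9, a ligand of this receptor, differed from control by -0.87 (limma, adjusted p = 0.334) in TrbE10 and by -1.14 (adjusted p = 0.282) in TrbE14.

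Of 22 other B cell genes on the array, 11 were tested. Igkc, the immunoglobulin kappa constant region, Blk, a B cell kinase, and Cxcr5, the receptor for Cxcl13, were well above background in 0 hearts. Pax5, a transcription factor of the B cell lineage, was detected in 4 hearts. Cd37, Blnk, Bank1, Bcl11a and Faim3 were detected in 12 hearts and Cd22 in 11. In TrbE10 against control 1 of the 11 was called higher, and in TrbE14 against control 0, beside 1.28% and 0.533% of all genes. The medians were 0.00065 and -0.30 on the log2 scale, beside -0.025 and -0.031 over all genes. In TrbE10 the larger of the remaining differences were those of Ly6d at 0.59 (adjusted p = 0.521) and Faim3 at 0.41 (adjusted p = 0.427). In TrbE14 they were those of Ly6d at 1.09 (adjusted p = 0.298), Cd72 and Cr2, a complement receptor, at -0.59 (adjusted p = 0.539), all by limma. Ly6d was well above background in 1 control, 3 TrbE10 and 4 TrbE14 hearts. It was thus tested through mutant hearts alone, and the filter leans towards higher mutant values for this gene.

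The called B cell gene was Cd72, a C-type lectin of B cells that is also found on macrophages and dendritic cells. Its log2 signals were 5.62, 5.31, 5.58 and 5.49 in control, 7.76, 6.98, 7.43 and 7.49 in TrbE10 and 7.13, 6.40, 6.76 and 5.82 in TrbE14 hearts. Every mutant heart was above every control heart, and TrbE10 and TrbE14 overlapped at their edges. The log2 difference from control was 1.92 ± 0.25 (limma, adjusted p = 0.00339) in TrbE10 and 1.03 ± 0.25 (adjusted p = 0.107) in TrbE14. Without TrbE14 replicate 4 the latter was 1.26 with an adjusted p of 0.0288 by limma. With normexp the differences were 1.01 (limma, adjusted p = 0.00285) and 0.40 (adjusted p = 0.196). The difference between the mutants, 0.89, had an adjusted p of 0.563.

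No gene of the plasma cell, NK cell and thymocyte lists was called in either mutant. Over all genes 1.93% were called in TrbE10 and 0.66% in TrbE14, so that 0 calls among so few genes say little about these lists. Of 6 plasma cell genes on the array 2 were tested and 0 called, and Igj, the joining chain of secreted antibody, was well above background in 0 hearts. Of 13 NK cell genes 5 were tested and 0 called, with medians of -0.077 in TrbE10 and -0.34 in TrbE14. Ncr1 and Klrb1c, receptors that define these cells, were well above background in 0 hearts. Nkg7 and Ccl5 of the same list were well above background in 12 hearts and Gzma in 11. Of 6 thymocyte genes 2 were tested and 0 called, and the recombinase genes Rag1 and Rag2 were well above background in 0 hearts.

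Among genes for chemokines and cytokines that draw or sustain lymphocytes, 5 of 9 on the array were tested and 1, Cxcl13, was called in both mutants. Over all genes 1.28% were called higher in TrbE10 and 0.533% in TrbE14. Cxcl13, named here after its values were seen, attracts B cells through Cxcr5. It was well above background in 0 control hearts and in all 8 mutant hearts, and its signal was at least 13.3-fold higher than control in TrbE10 (limma, adjusted p = 2.43e-05) and at least 9.65-fold higher in TrbE14 (adjusted p = 7.72e-05). These bounds too hold for this normalization alone, since the log2 differences were smaller with the authors' normalized values, 3.24 and 2.78, and with normexp, 2.45 and 2.02, each with an adjusted p under 0.05. Ccl19, a ligand of the homing receptor Ccr7, differed from control by 0.72 (limma, adjusted p = 0.144) and 0.58 (adjusted p = 0.302) in TrbE10 and TrbE14. Ltb, a lymphocyte cytokine, differed by 0.075 (adjusted p = 0.919) and -0.18 (adjusted p = 0.782).

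The macrophage list stood beside these values in the same arrays. Of its 26 genes on the array, 25 were tested, and 11 were called higher in TrbE10 and 3 in TrbE14 against control, beside 1.28% and 0.533% of all genes, with 0 called lower and medians of 0.72 and 0.45 on the log2 scale. Its 3 genes of highest signal were Itgam, Csf1r and Fcer1g, with mean log2 signals of 12.8, 12.2 and 11.0 in control hearts. Csf1r, the receptor for the growth factor of macrophages, was higher by 1.14 (limma, adjusted p = 1.12e-04) and 0.92 (adjusted p = 6.07e-04) in TrbE10 and TrbE14. Fcer1g, an Fc receptor chain, differed by 0.77 (adjusted p = 0.0190) and 0.47 (adjusted p = 0.179), and Itgam, an integrin of myeloid cells, by -0.088 (adjusted p = 0.729) and 0.044 (adjusted p = 0.872). The summed signal of the list was 25464 to 29509 in control hearts, 34712 to 40201 in TrbE14 hearts and 39244 to 47574 in TrbE10 hearts, so that both mutants lay above control and overlapped each other. Over the 3 tested T cell members the same sum was 315 to 441 in control hearts, 354 to 439 in TrbE10 hearts and 353 to 408 in TrbE14 hearts, with overlap throughout. Of the control sums, 161 to 203 came from the Cd4 probe. The second Cd4 probe was dark in every heart. Over the probes named Cd79a and Cd79b the sum was 109 to 168 in control, 190 to 261 in TrbE10 and 141 to 306 in TrbE14 hearts. TrbE10 thus lay above control and TrbE14 overlapped it.

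Genes that leukocytes share, macrophages and lymphocytes alike, were counted separately. Of 15 on the array 13 were tested, and 5 were called higher in TrbE10 against control (Coro1a, Lcp1, Vav1, Itgb2 and Itgal) and 2 in TrbE14 (Lcp1 and Itgal), named after their values were seen. The shares called higher over all genes were 1.28% and 0.533%. The medians of the 13 tested genes were 0.45 and 0.30 on the log2 scale, beside Ptprc differences of 0.46 and 0.0031. Among neutrophil genes 6 of 11 were tested and 0 called, beside 1.93% of all genes in TrbE10 and 0.66% in TrbE14 against control. The brightest was Csf3r at 15.0 in control, with differences of -0.075 and 0.042, and the next was S100a9 at 8.29. Mpo, Ngp and Ltf of this list were well above background in 0 hearts, and S100a9, Ly6g, Elane and Camp in 12. Whether the Csf3r probe read neutrophils was not tested. Among erythroid genes 6 of 8 were tested and 0 called, beside the same shares of all genes. The brightest were Hba-a2, Hba-a1 and Hbb-b1, which code for haemoglobin chains. The summed erythroid signal was 135695 to 279849 in control hearts, 141605 to 397931 in TrbE10 hearts and 204942 to 329440 in TrbE14 hearts, and the 3 ranges overlapped. The part of blood and of macrophages in the Cd79b, Ptprc and Lck values was not tested.

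**Figure D3:**
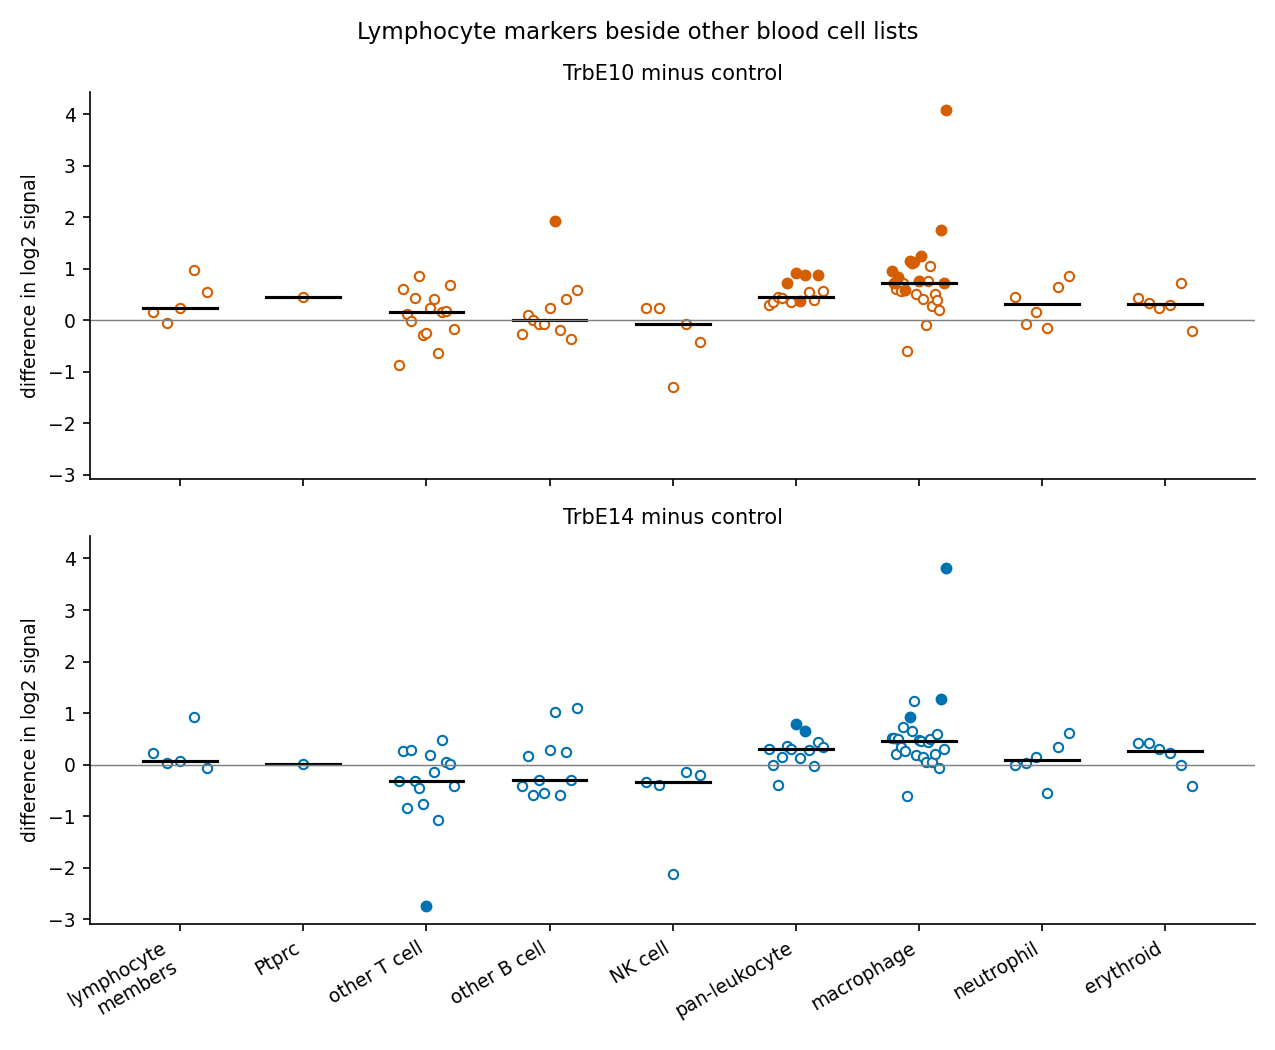
Difference in log2 signal from control (y axes) for each tested gene of the lists on the x axis, TrbE10 above and TrbE14 below, filled where the adjusted p was under 0.05, with the median of each list as a black line. Filled points are frequent in the macrophage and pan-leukocyte lists, whereas the lymphocyte lists hold Cd72 in TrbE10 and Cxcr3 in TrbE14. Genes not well above background in any heart of a group, such as Cxcr3 in TrbE14, are plotted at their measured difference and not at their bound.

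Across the 12 hearts the members were also compared with each other and with the medians of the macrophage and erythroid lists, 27 relations in all. None had an adjusted p under 0.05 for Pearson's r by permutation (0 of 27). Ptprc and the macrophage median had r = 0.79 (permutation p = 0.00289, adjusted 0.0780) and rho = 0.80 (p = 0.00318, adjusted 0.0459). Their r was 0.72 without the 2 hearts farthest from the median of Ptprc, 0.57 after the group means were subtracted and 0.48 over the 8 hearts of the first slide. Lck and Ptprc had r = 0.71 (permutation p = 0.0102, adjusted 0.0918) and rho = 0.79 (p = 0.00340, adjusted 0.0459). Their r fell to 0.53 without the 2 farthest hearts, and was 0.44 after the group means were subtracted and 0.52 on the first slide. Among the tested T cell members r was 0.24 for Cd3e and Cd4, 0.072 for Cd3e and Lck and -0.018 for Cd4 and Lck. The permutation p was 0.451, 0.823 and 0.956 in that order. On the first slide these r were 0.46, 0.16 and 0.65. The second slide held 4 hearts of 1 group, too few for a value.

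The probes named for the B cell chains, and that of Cd3e, behaved differently from those of Ptprc and Lck. Cd79a and Cd79b had r = 0.55 (permutation p = 0.0634, adjusted 0.428) and rho = 0.63 (p = 0.0329, adjusted 0.222) over the 12 hearts, 0.48 without the 2 farthest hearts, 0.75 after the group means were subtracted and 0.51 on the first slide. Cd79b and the macrophage median had r = 0.47 (permutation p = 0.124, adjusted 0.558) and rho = 0.45 (p = 0.146, adjusted 0.657) over all hearts, 0.40 without the 2 farthest, -0.68 after the group means were subtracted and 0.23 on the first slide. The sign thus differed between the values with and without the group means. Cd3e and the erythroid median had r = -0.72 (permutation p = 0.00677, adjusted 0.0914) and rho = -0.73 (p = 0.00903, adjusted 0.0813), with -0.68 without the 2 farthest hearts, -0.87 after the group means were subtracted and -0.67 on the first slide. Cd3e and the macrophage median had r = -0.010 (permutation p = 0.976, adjusted 0.976) and rho = 0.13 (p = 0.701, adjusted 0.922), with 0.14 without the 2 farthest hearts, -0.54 after the group means were subtracted and -0.16 on the first slide.

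The genes most like Ptprc in their signal over the 12 hearts, among 18020 others and by Pearson's r, were Clec4a1 at 0.908, NAP094888-001, a name of the array's own, at 0.908 and Sergef at 0.885. Clec4a1 encodes a C-type lectin receptor of myeloid cells. These values are descriptions, since the 3 were the highest of all genes compared.

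**Figure D4:**
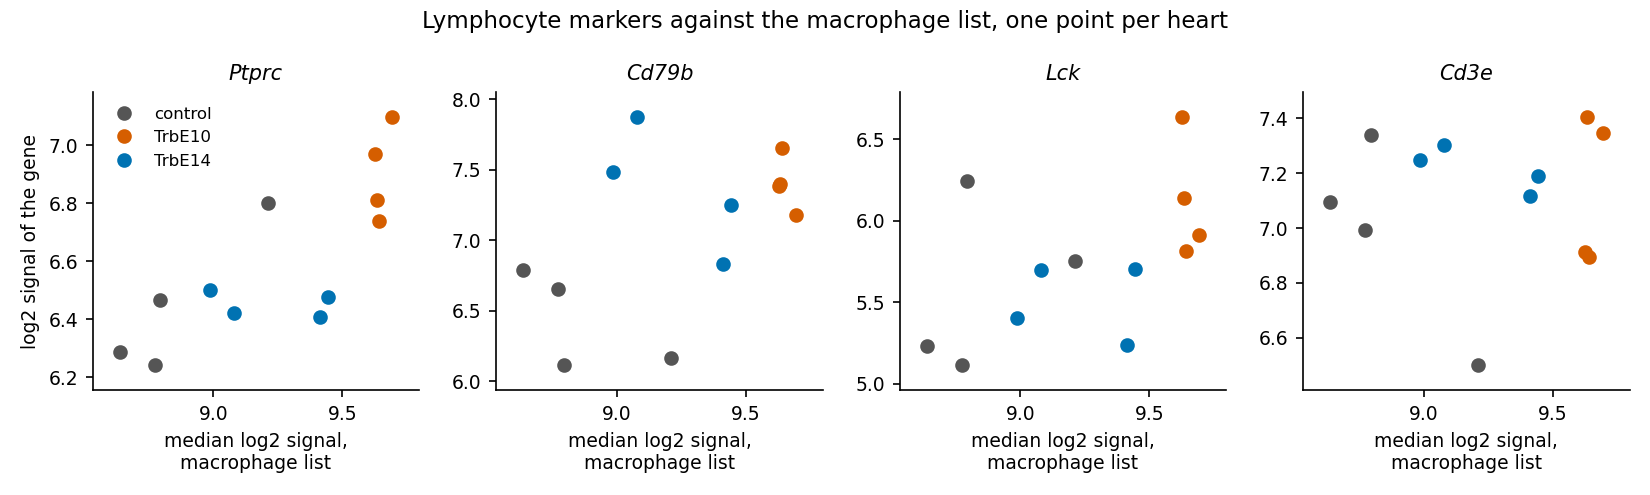
Log2 signal of Ptprc, Cd79b, Lck and Cd3e (y axes) against the median log2 signal of the macrophage list (x axes), 1 point per heart, coloured by group. TrbE10 hearts lie at the right in every panel, Ptprc rises with the macrophage median over all hearts (r = 0.79), Cd79b is higher in every mutant than in every control heart, and Cd3e has r = -0.010 over all hearts and -0.54 after the group means are subtracted.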

How the data were processed

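RNA of 12 left ventricles was hybridized in Cy3 to Agilent SurePrint arrays. The authors deposited each array's scanner output (Feature Extraction 10.5), which holds intensities with the array's own background subtracted, and a table of 22114 rows, quantile normalized and filtered on background, in log2 units. This table correlated with the scanner values at r of 0.997 or more per array. Here log2 was taken of the processed intensities before quantile normalization. Of 62976 spots 3671 were controls and were left out, outlier spots were dropped, and the remaining spots were averaged per probe. Probes well above background on 3 of 4 arrays of any group were kept (24593 probes, 18021 genes, 7 missing values). A gene was represented by its brightest kept probe. The number of arrays limits the precision.

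All groups entered 1 fit in R 4.3.3 with limma 3.58.1 (residual degrees of freedom 9, prior 2.19), with Benjamini-Hochberg adjustment over all kept probes of a comparison. Every adjusted p is limma's unless another test is named. Single members were also tested by the exact two-sided permutation test over 70 label orders, and correlations by 100000 permutations, in Python 3.11.15 with scipy 1.17.1. Where a group had no array well above background, the fold is a bound against each array's lowest signal well above background, or the probe's own where higher. On simulated data for TrbE10 against control, limma recovered 61% of probes changed by 1 on the log2 scale and 98% of those changed by 2, with 7 false calls among 166.

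The members, the lists and the tests were chosen with earlier results of these data known. Named besides the members were the called genes of the T cell, B cell, NK cell and thymocyte lists, the 3 largest differences of the T and B cell lists per mutant, the brightest genes of the other lists, and the 3 genes most correlated with Ptprc. Genes outside this rule are said to be named after their values were seen, or are given only by detection. As alternatives, arrays were scaled to the 75th percentile, background was corrected by normexp (offset 50), probes were filtered on 9 of 12 arrays or not at all, and the fit was repeated with the authors' log2 values, fits of 2 groups, a replicate block, Y-linked signal as a covariate, SAM at a false discovery rate of 5% as in the study's methods, any probe of a gene, and each array left out.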

Additional observations from a re-analysis of the deposited data

Results flagged for a closer look

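Of 36 sets of 4 hearts, 1 for each member probe and group, 2 held a heart far from the other 3 by Dixon's criterion, which chance gives in about 1 of 20. Both were TrbE14 replicate 3 and both were below background. In the second Cd4 probe this heart measured 2.65 on the log2 scale, where the others measured 2.39 to 2.43. In Ms4a1 it measured 4.56, where the others measured 2.65 to 2.80. The same heart had the highest TrbE14 signals of Cd79a, 6.15, and of Cd79b, 7.87, and without it the Cd79b difference from control was 0.76.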

How the results depend on the processing

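The count of called members in TrbE10 against control, 0, became 1 (Cd79b) with normexp, the authors' normalized values and SAM, and in TrbE14 against control 1 (Cd79b) with normexp. Leaving out 1 array gave 0 to 1 called members in TrbE10 against control (Cd79b without TrbE14 replicate 2, adjusted p = 0.0400, or replicate 3, 0.0368, and Ptprc without control replicate 3) and 0 in the other comparisons. Differences near 0 changed sign: with normexp, for TrbE14 against control, Cd4 to -0.018 and Lck to 0.039, and between the mutants Cd79a to -0.037 and Cd79b to -0.051. With the authors' values Ptprc in TrbE14 changed to -0.014, and with Y-linked signal as a covariate Lck in TrbE14 to 0.070 and Cd79a in TrbE14 to -0.16. With 1 array left out, differences that changed sign ranged as follows. In TrbE10 against control Cd3e ranged from -0.0040 to 0.28 and Cd4 from -0.16 to 0.036. In TrbE14 against control Cd4 ranged from -0.024 to 0.092, Lck from -0.23 to 0.15, Cd79a from -0.14 to 0.31 and Ptprc from -0.066 to 0.12. Between the mutants Cd3e ranged from -0.16 to 0.0062, Cd4 from -0.19 to 0.0097, Cd79a from -0.083 to 0.37 and Cd79b from -0.13 to 0.21. The cause was not tested. Cd79b stayed above control in both mutants in every fit, by 0.59 or more in TrbE10 and 0.64 or more in TrbE14.

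The labels give the replicate numbers no meaning beyond a count. Same-numbered deviations from the group means correlated at r from -0.24 to 0.079 between mutant and control hearts and from -0.0083 to 0.48 between the mutants, where 3 of 4 pairs were over 0.1 and 3 hearts correlated best with their own number, so the rule for pairing, all pairs over 0.1, was not met. With a replicate block 0 members were called and Cd79b had adjusted p-values of 0.0998 in TrbE10 and 0.161 in TrbE14. Genes called in all numbered 348 in TrbE10 against control, 164 without a filter, 216 in the fit of 2 groups, 521 by SAM and 139 to 584 with 1 array left out. In TrbE14 against control they numbered 119, 198 with normexp, 262 by SAM and 67 to 159 with 1 array left out. Between the mutants 1 gene was called with scaling to the 75th percentile, 1 without a filter, 2 by SAM and 0 to 1 with 1 array left out. Signal over background limits Cd3g, Cd8a and Ms4a1, for which a low level cannot be told from none.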
